A study of Mus musculus with 33 samples.

Results

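Cells of mouse bone that had been tagged with biotin after intracardiac injection were compared with untagged cells of the same tissue. The members are the 8 intracardiac bone samples, 4 biotin positive and 4 biotin negative, of 33 samples in the series, chosen by tissue, injection route and sort as the labels give them. Cells were kept with at least 500 unique molecular identifiers (UMIs, each standing for 1 captured RNA molecule), at least 200 detected genes and at most 15% mitochondrial UMIs. This left 4515 positive and 11482 negative cells, or 15997 of the 55366 kept cells of all intracardiac samples.

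In SAMENT, the labelling method of the study, injected tumour cells carry an enzyme that tags neighbouring cells with biotin, so the positive sort holds cells labelled near tumour cells and the negative sort the rest of the tissue. All 8 samples share the intracardiac injection and the overnight substrate labelling, and they come from bone (femurs and tibias). The labels give no tumour line, mouse strain, age or sex for these groups, and no untreated bone. Samples are called positive 1 to 4 and negative 1 to 4 after the replicate number in the labels. The labels do not say that they came from separate animals, so p-values measure only the spread between these samples.

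Bone marrow makes neutrophils continuously from stem and progenitor cells. Early granulocyte precursors make the primary granule proteins Elane, Mpo and Prtn3. Later precursors and immature neutrophils make secondary granule proteins such as Ltf, Camp, Ngp and Lcn2, and mature neutrophils acquire Cxcr2 and leave the marrow. The marrow also holds Vcam1-bearing resident macrophages, which clear cells and recycle iron, stromal cells that secrete matrix and retention signals such as Cxcl12, and osteoclasts, which resorb bone with the protease Ctsk and the phosphatase Acp5.

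Total UMIs ranged from 9058909 to 19629729 in the positive samples and from 21117526 to 44834665 in the negative ones, and the median UMIs per cell from 5715 to 11313.5 and from 5977 to 8913. The median mitochondrial share was 3.05% in negative 1 and 2.03% in positive 1, against 0.501% to 1.11% in the other samples. Negative 1 stands apart in its cells, with 28.8% classical monocyte-like cells and 0.844% neutrophil precursor-like cells. Positive and negative samples of 1 replicate number shared no cell barcode, and 17 of the 24 pairs with different numbers shared some, 37 in all. The marker genes of immature neutrophils summed to 17400 to 62100 counts per 1000000 UMIs (CPM) in every sample. Of the 8 epithelial or tumour markers 2 were at 0 and the rest summed to 3.77 to 17.8 CPM. Class names below are resemblances of clusters to marker lists.

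Resident macrophage-like, stem or progenitor-like and stromal-like cells took a larger share of every positive sample than of any negative sample, and plasmacytoid dendritic-like cells a smaller one. Macrophage-like cells, in a cluster with 14 of 15 macrophage markers among its leading genes, made up 6.03%, 33.0%, 5.16% and 1.04% of positive samples 1 to 4. In negative 1 to 4 they made up 0.101%, 0.506%, 0.327% and 0.143%. The groups did not overlap, and positive 2 lay far above the rest. The means were 11.3% ± 14.6 (SD, n = 4) and 0.269% ± 0.186 (n = 4), with a two-sided exact permutation p of 0.0286, the smallest that 4 samples against 4 allow, and 0.136 after adjustment over 19 classes. The difference of 11.03 percentage points was 3.81 without positive 2. Tested as cell numbers in edgeR, the macrophage-like class was higher by 5.37 on the log2 scale (adjusted p = 0.000389).

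Stem or progenitor-like cells, named from markers such as the receptor Kit and the sialomucin Cd34, made up 2.24%, 6.46%, 1.94% and 1.16% of positive samples 1 to 4 and 0.0338%, 0.272%, 1.10% and 0.285% of negative 1 to 4. The highest negative sample lay just under the lowest positive one. Their mean was 2.95% ± 2.38 against 0.424% ± 0.468 (n = 4 each, exact p = 0.0286, adjusted 0.136), and cell numbers in edgeR gave a log2 ratio of 2.80 (adjusted p = 0.0447). The difference of 2.52 percentage points was 1.35 without positive 2. The cells under this name were not alike between samples. Cdk6, a cell cycle kinase, was at 492, 141, 498 and 316 CPM in those of positive 1 to 4, and Cd34 at 279.9, 105, 253 and 188. Positive 2, with the most such cells, was the lowest of the 4 in both, and its median of 7292 UMIs per cell was below the 12575 to 18751.5 of the other 3. Stromal-like cells were rare, with 11, 16, 3 and 4 cells in positive samples and 2, 3, 4 and 0 in negative ones. They took 0.765% ± 0.535 of positive and 0.0870% ± 0.0700 of negative cells (n = 4 each, exact p = 0.0286, adjusted 0.136), without overlap, and passed in edgeR with a log2 ratio of 3.10 (adjusted p = 0.00827). The difference of 0.678 points was 0.411 without positive 2. In a clustering of 32 samples of the series, no cluster with these cells took the stem or progenitor or the stromal name.

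Plasmacytoid dendritic-like cells, producers of type I interferon, fell to 0.349%, 0.0979%, 0.484% and 0.116% in positive samples from 7.46%, 1.87%, 1.19% and 0.514% in negative ones, a log2 ratio of -3.39 in cell numbers (edgeR adjusted p = 0.0205; exact p = 0.0286, adjusted 0.136). The lowest negative sample stood just above the highest positive one. The difference of -2.50 points was -0.928 without negative 1. Classical monocyte-like cells were lower in the positive sample of each of the 4 same-numbered pairs, at 4.54% ± 2.50 against 14.6% ± 10.4 (n = 4 each, exact p = 0.0571, adjusted 0.217). Their fall passed in edgeR only when the replicate number was a term in the model, hereafter the replicate block (log2 ratio -1.61, adjusted p = 0.0134). The difference of -10.1 points was -5.37 without negative 1. In all, 6 of 19 classes passed in edgeR and 7 with the block, and none passed the exact test after adjustment.

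**Figure D1:**
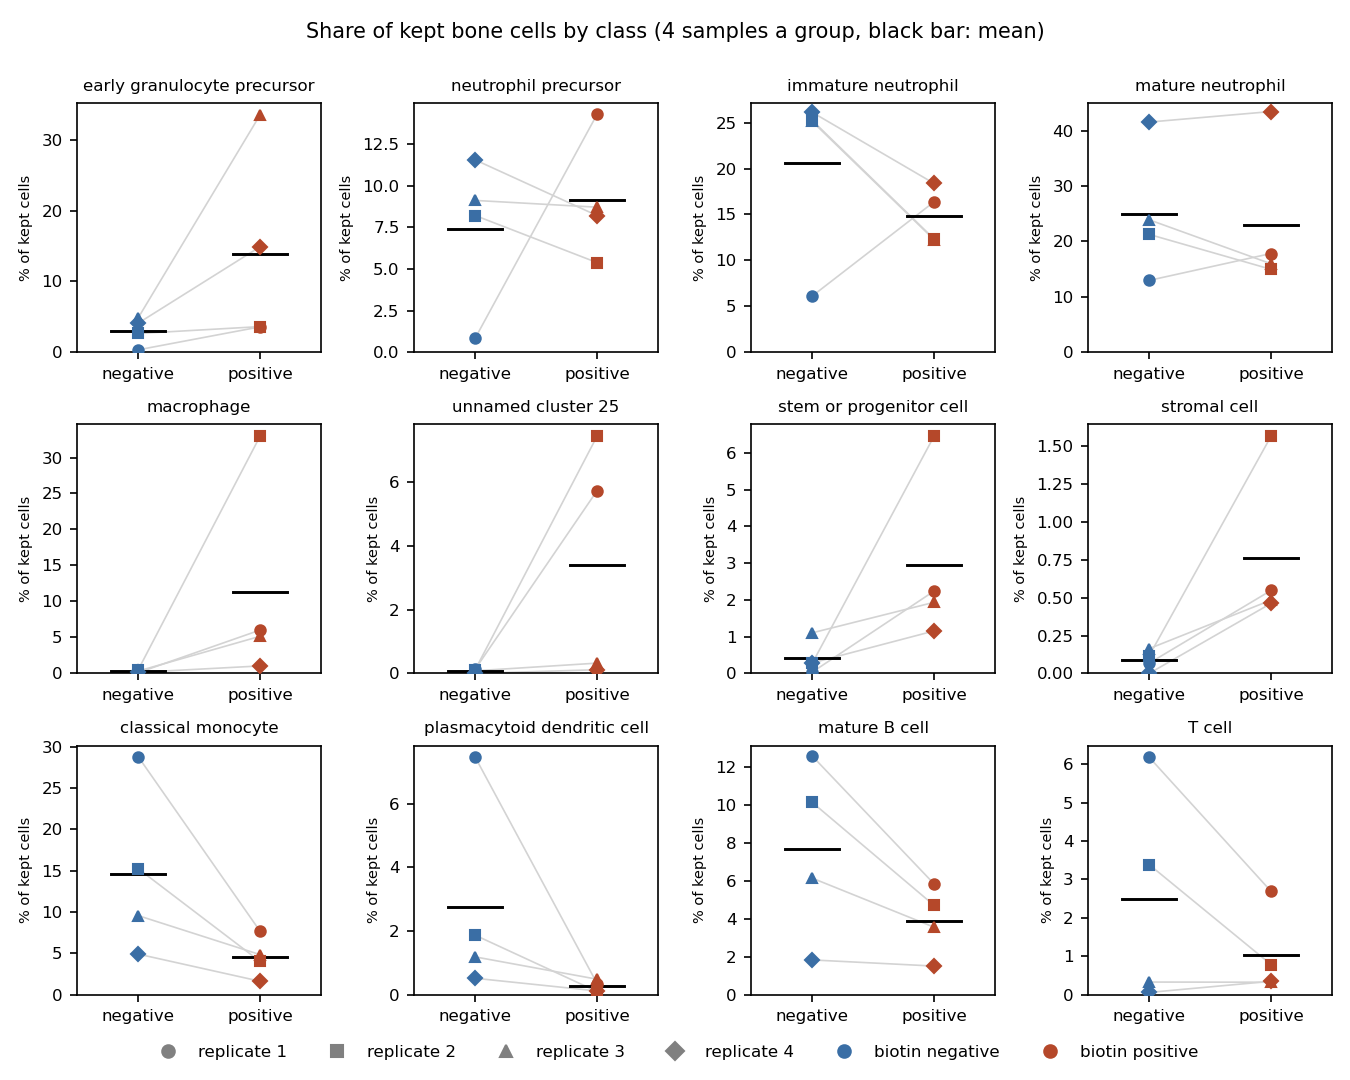
Share of kept cells (%) of 12 classes in the 4 biotin negative (blue) and 4 biotin positive (red) bone samples, with grey lines joining samples of 1 replicate number and a black bar at the mean. The macrophage, stem or progenitor and stromal panels show every positive sample above every negative one, with positive 2 highest in all of them.

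The tagged macrophage-like cells were not alike across samples. In this class C1qa, a chain of complement C1q, was at 2794, 6386, 1574 and 1407 CPM in positive 1 to 4, against 95.9, 81.8, 0 and 0 CPM in mature B-like cells of the same samples, which should lack it. Vcam1, an adhesion molecule, was at 5449, 14180, 3383 and 3953 CPM of the class. Both genes were thus highest in positive 2 and lower in positive 3 and 4, where the class held 32 and 9 cells. In negative 1 to 4 the class held 3, 13, 8 and 5 cells, with C1qa at 493, 1103, 735 and 3967 CPM. Negative 4 was thus above positive 1, 3 and 4. The median cell of this class held 1296, 1898, 622 and 781 UMIs in positive 1 to 4, below the sample medians of 6845, 5715, 11313.5 and 8998. A finer clustering kept the name for 118 of 121, 282 of 337, 4 of 32 and 4 of 9 of these cells, and for 10 of the 29 negative ones. By sample it was kept for 1 of 3, 2 of 13, 2 of 8 and 5 of 5 cells of negative 1 to 4. The class is thus well marked in positive 1 and 2 and shallow in positive 3 and 4. Too few samples held 10 such cells for a test of genes within the class (3 positive and 1 negative).

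The stromal-like cells carried matrix and niche transcripts. Dcn, a proteoglycan of the collagen matrix, had 1999 of its 2021 UMIs in positive samples (98.9%) in these 34 cells. Of the UMIs of Cxcl12, which retains blood cells in marrow, 97.7% in positive and 97.9% in negative samples were stromal, and 231 of the 232 negative ones came from 4 cells of negative 3. Col1a1, a chain of type I collagen, had 122, 682, 6 and 2 UMIs in the stromal-like cells of positive 1 to 4 and 1 UMI in those of all negative samples. Mgp, an inhibitor of calcification, had 506, 639, 139 and 51 UMIs in positive and 34, 21, 201 and 0 in negative stromal-like cells. These cells therefore differed among samples in their leading transcripts: Dcn was higher than Cxcl12 in positive 1, 2 and 4 and lower in positive 3 and negative 3. In the stromal-like cells of positive 2 Spp1, which encodes osteopontin, was above Dcn, at 16560 against 5128 CPM.

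In the summed transcriptome of each sample, Dcn, Rarres2 and Serping1, found mainly in stromal-like cells, were higher in every positive than in every negative sample, and Dcn rose with the block. All CPM values of sums below are scaled by edgeR's TMM factors. Dcn was at 42.9, 69.4, 4.22 and 21.9 CPM in positive 1 to 4 and at 0.193, 1.17, 0.166 and 0.114 in negative 1 to 4. No negative sample reached the lowest positive one. The log2 difference was 6.43 ± 1.04 (SE), with an edgeR quasi-likelihood adjusted p of 0.615, and 6.52 ± 0.45 with the replicate block (adjusted p = 0.0187). Rarres2, the secreted chemerin, was at 1.00 to 4.02 CPM in positive and 0.0835 to 0.291 in negative samples, with 98.7% of its positive UMIs in stromal-like cells (log2 3.97 ± 0.59, edgeR adjusted p = 0.615). Serping1, the C1 inhibitor, was at 1.30 to 5.33 and 0.0286 to 0.499 CPM (log2 3.75 ± 0.76, edgeR adjusted p = 0.615). Such sums mix the number of cells of a type with the RNA per cell. Within stromal-like cells Dcn was at 10410, 5128, 6247 and 31810 CPM in positive 1 to 4, in 34 cells, and at 166, 4229 and 176 CPM in negative 1 to 3, where 9 cells held 3, 28 and 2 Dcn UMIs. Both the share of these cells and the Dcn level within them were thus higher in each positive sample than in any negative sample with such cells, but the negative cells are too few for a test of the level.

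Vat1, a membrane protein of vesicle transport, was at 17.03, 46.2, 45.8 and 27.9 CPM in positive samples and 4.55, 9.77, 13 and 10.1 in negative ones. Each positive sample was above each negative one, and the gene rose with the block (log2 1.86 ± 0.16, edgeR adjusted p = 0.0315; 1.87 ± 0.40 without it, adjusted p = 0.615). Early granulocyte precursor-like cells held 63.6% of its positive and 53.5% of its negative UMIs. Serpina3n, a secreted protease inhibitor, and Cavin1, a coat protein of caveolae, also rose with the block, by log2 4.92 ± 0.50 (edgeR adjusted p = 0.0472) and 3.11 ± 0.33 (adjusted p = 0.0481). Both were scarce: Serpina3n was at 0.667 to 1.17 CPM in 3 positive samples and 13.9 in positive 2, and at 0 to 0.334 in negative samples. Stromal-like cells held 98.5% of the positive Serpina3n UMIs and 49.3% of those of Cavin1. Leaving stromal-like cells out of the sums left 4 genes called with the block, Vat1, Igkc, Ccr9 and Ccr2.

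Across all 12533 genes tested in the sums, 0 (0%) passed in edgeR at an adjusted p of 0.05, while 983 (7.84%) were under 0.05 before adjustment, and 120 of 21681 passed in DESeq2. With the replicate block 12 genes passed (0.0957%), 4 higher (0.0319%) and 8 lower (0.0638%). All 12 calls were lost without pair 1, 2 or 4, with 0 genes passing each time, and 9 of them were among 37 called without pair 3. All that were tested kept their sign. The median log2 difference over all genes was 0.01. Of all genes, 1.91% were higher and 2.4% lower in every positive than in every negative sample. These shares are the background for the counts of list members that follow.

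All 14 tested resident macrophage genes were above 0, with a median log2 difference of 3.32, and 1 of them, Vcam1, had groups that did not overlap. Without positive 2 the list's median was 1.21, with 12 of 15 tested above 0, and with the block 2.43, with 12 of 14. Vcam1 was at 144, 1506, 60.4 and 59.2 CPM in positive and 3.59, 27.7, 14.9 and 15.5 in negative samples (log2 4.84 ± 1.24, edgeR adjusted p = 0.615; 2.51 without positive 2), and 84.0% of its positive UMIs came from macrophage-like cells. C1qa, by contrast, was at 169 and 802 CPM in positive 1 and 2 but 5.98 and 6.92 in positive 3 and 4, inside the negative range of 3.03 to 34.4. The list of 16 tested stem and progenitor genes had 15 above 0 and a median of 1.28. Kit, Cd34, Muc13 and Hlf, which encodes a transcription factor of stem cells, were without overlap. Hlf was at 8.92, 24.8, 11.1 and 5.26 CPM in positive and 0.887, 2.59, 5.15 and 3.14 in negative samples (log2 2.08 ± 0.59, edgeR adjusted p = 0.615). Kit was at 16.6, 16.1, 40.2 and 19.8 against 2.55, 7.01, 14.4 and 8.72 CPM (log2 1.5 ± 0.50, edgeR adjusted p = 0.615). The carbonic anhydrase Car2 was at 11.2 to 37.2 CPM in positive and 3.03 to 7.73 in negative samples, with 61.3% of its positive UMIs in stem or progenitor-like cells. None of these macrophage and progenitor genes passed with or without the block.

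**Figure D2:**
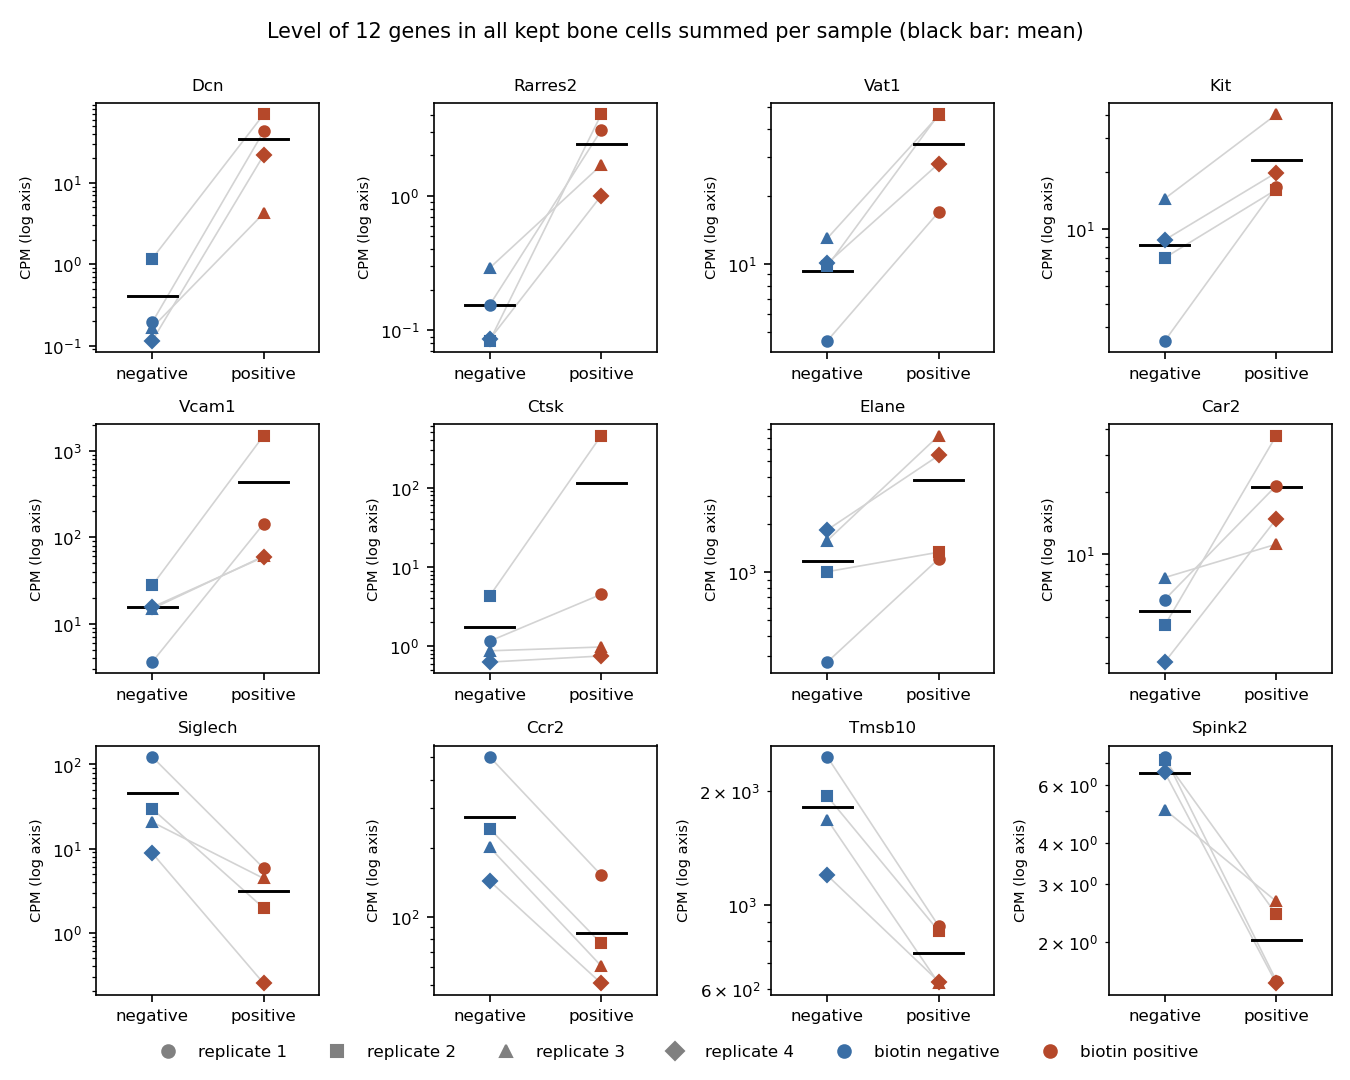
Level of 12 genes (CPM, log axis) in all kept cells of each bone sample, biotin negative in blue and positive in red, with lines joining samples of 1 replicate number and a black bar at the mean. Dcn, Rarres2, Vat1 and Kit lie higher, and Siglech, Tmsb10 and Spink2 lower, in every positive than in every negative sample, while Ctsk is high only in positive 2 at 453.8 CPM.

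Most Ctsk UMIs came from 10 cells of 1 sample. Ctsk was at 4.50, 453.8, 0.975 and 0.751 CPM in positive 1 to 4 and 1.16, 4.30, 0.873 and 0.629 in negative 1 to 4. Positive 2 held 4850 Ctsk UMIs, 94.2% of all those in bone, and 10 cells of unnamed cluster 25 in that sample held 4207, or 81.7% of all those in bone. The same 10 cells held 55.5% of all Acp5 UMIs, and positive 2 held 64.7%. The 1978 Acp5 UMIs of the negative samples were spread over classes, with 19.4% in mature B-like, 18.2% in classical monocyte-like and 13% in NK-like cells. Without positive 2 the log2 difference of Ctsk went from 6.06 to 0.289 and that of Acp5 from 2.85 to -0.223. The 10 tested bone remodelling genes had a median log2 difference of 2.62 and 0.70 with the block, and none passed.

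The leading genes of cluster 25 included Pf4, Ctsk and Spp1, and it stayed unnamed because macrophage markers, its best list with 6 among its leading genes, did not lead its first 10. It held 115, 76, 2 and 1 cells of positive 1 to 4 and 4, 3, 2 and 0 of negative 1 to 4, or 3.4% ± 3.74 and 0.0834% ± 0.0598 (n = 4 each, exact p = 0.0857, adjusted 0.271). In edgeR its cell numbers were higher by 5.29 on the log2 scale (adjusted p = 0.00204). Within it, C1qa was at 1553 CPM in positive 1 and 1191 in positive 2. Ctsk differed more between these samples, at 58.2 and 3825 CPM. Positive 1 and 2 together held most UMIs of Spp1 in bone, at 26.7% and 50.0%, and positive 3 and 4 held 1.86% and 0.935%. Not all of it was in cluster 25: of the 5456 Spp1 UMIs of positive 2, 2958 were in this cluster and 2373 in 6 stromal-like cells.

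The 8 genes that fell with the block in the positive sums included genes of plasmacytoid dendritic cells, monocytes and antibody-producing cells. None of the 11 plasmacytoid dendritic genes was above 0 (median log2 -2.05), and Siglech, Cox6a2, Irf8 and Runx2 did not overlap. Siglech, a lectin of these cells, was at 5.86, 1.97, 4.42 and 0.250 CPM in positive and 123, 29.8, 20.7 and 8.86 in negative samples (log2 -3.83 ± 0.98, edgeR adjusted p = 0.615). Ccr9 and Ly6d of the same list fell with the block, Ccr9 at a log2 difference of -2.96 ± 0.22 (edgeR adjusted p = 0.0187). The monocyte chemokine receptor Ccr2 was at 152, 76.2, 60.8 and 51.0 CPM in positive and 503, 243, 202 and 143 in negative samples. The groups overlapped through positive 1 and negative 4, but each pair differed the same way, and Ccr2 fell with the block (log2 -1.66 ± 0.13, edgeR adjusted p = 0.0255). Classical monocyte-like cells held 47.8% of its positive and 67.4% of its negative UMIs. Vcan, a matrix proteoglycan of monocytes, and Ms4a4c fell with it. These are 3 of the 13 monocyte genes, of which 3 were above 0 (median log2 -0.51), and of the 8 classical monocyte markers none was above 0 (median -1.29). Igkc, the constant part of the kappa antibody chain, was at 610, 70.7, 879 and 384 CPM against 4310, 830, 7288 and 4135 and fell with the block (log2 -3.21 ± 0.22, edgeR adjusted p = 0.0187). Plasma-like cells held 74.7% of the positive and 93.7% of the negative Igkc UMIs. Of the 9 plasma cell markers 3 were above 0 (median -1.58), and 1 fell with the block. This gene, Mzb1, a chaperone of antibody secretion, and the homeobox gene Hopx completed the 8 genes that fell with the block.

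Among the other genes lower in every positive sample, Spink2, a protease inhibitor, was at 1.502 to 2.67 CPM in positive and 5.07 to 7.33 in negative samples (log2 -1.69 ± 0.28, edgeR adjusted p = 0.615). Classical monocyte-like cells held 69.0% of its negative UMIs. Tmsb10, an actin-binding thymosin, was at 620 to 878 and 1195 to 2455 CPM (log2 -1.29 ± 0.26, edgeR adjusted p = 0.615). Neither passed with or without the block.

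Whether these differences were larger in bone than elsewhere was tested as an interaction with the mean positive-minus-negative difference of brain, liver and lung. Of 13963 genes, 0 (0%) passed in edgeR, 1057 were under 0.05 before adjustment, 0 passed with the block, and 4 passed in DESeq2. These were Ddit4l and Ccr3, with the more positive difference in bone, and Kank3 and Sept10, with the more negative one. In edgeR no gene difference is thus shown to be particular to bone. Shares of cells were not put through this test.

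All granulocyte-lineage classes together held 52.1%, 36.3%, 70.5% and 85.0% of the cells of positive 1 to 4 and 20.3%, 57.4%, 63.0% and 83.4% of negative 1 to 4 (61.0% ± 21.2 against 56.0% ± 26.3, n = 4 each, exact p = 0.743). The groups overlapped, and no granulocyte stage passed the exact test of shares. Early granulocyte precursor-like cells, the cluster with all 8 of its markers among its leading genes, made up 3.59%, 3.62%, 33.5% and 14.9% of positive 1 to 4 and 0.338%, 2.65%, 4.87% and 4.11% of negative 1 to 4. The share was higher in the positive sample of all 4 same-numbered pairs, although positive 1 and 2 lay within the negative range (13.9% ± 14.1 against 2.99% ± 1.99, n = 4 each, exact p = 0.20, adjusted 0.434). Cell numbers in edgeR gave a log2 ratio of 2.21 (adjusted p = 0.0447). The difference of 10.93 points was 4.38 without positive 3.

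Neutrophil precursor-like cells took 9.15% ± 3.73 of positive and 7.43% ± 4.61 of negative cells (exact p = 0.657), immature neutrophil-like cells 14.8% ± 3.05 and 20.7% ± 9.71 (exact p = 0.229), and mature neutrophil-like cells 23.1% ± 13.7 and 24.9% ± 12.03 (n = 4 each, exact p = 0.714). Within the granulocyte precursors, the early cluster was 20.1%, 40.2%, 79.4% and 64.5% in positive 1 to 4 and 28.6%, 24.4%, 34.8% and 26.2% in negative 1 to 4. It was higher in pairs 2, 3 and 4 and lower in pair 1 (exact p = 0.20, n = 4 each). In the summed transcriptomes the 6 primary granule genes were all above 0 (median log2 1.57), and none passed. Elane, the neutrophil elastase, was at 1218, 1339, 7231 and 5427 CPM in positive and 273, 1010, 1584 and 1849 in negative samples (log2 1.69 ± 0.72, edgeR adjusted p = 0.615), and early granulocyte precursor-like cells held 94.0% of its positive UMIs.

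Early and later neutrophil precursors were first tested together. Of 10034 genes, 0 (0%) passed in edgeR without the block, 1005 (10%) were under 0.05 before adjustment, and none passed in DESeq2. With the block 682 passed (6.8%), 461 higher (4.59%) and 221 lower (2.2%). These calls rest on few samples: with a pair left out, 4170, 0, 0 and 0 genes passed without pair 1, 2, 3 and 4, although the 679 to 682 of them still tested all kept their sign. Without overlap, 1.6% of genes were higher and 1.84% lower. Genes that rose with the block included the ribosome assembly genes Wdr12 (log2 1.31 ± 0.13, edgeR adjusted p = 0.0244) and Gnl3 (1.12 ± 0.14, adjusted p = 0.0274), and Myc, a regulator of growth (1.07 ± 0.13, adjusted p = 0.0274). Wdr12 was at 31.6, 44.7, 82.9 and 65.5 CPM in positive and 13.9, 21.5, 34.3 and 21.7 in negative samples. Genes that fell with the block included the protease gene Adam8 (log2 -1.43 ± 0.17, edgeR adjusted p = 0.0274), the urokinase receptor Plaur (-1.18 ± 0.20, adjusted p = 0.0295) and the lipopolysaccharide co-receptor Cd14 (-0.95 ± 0.17, adjusted p = 0.0306). Since the early cluster was a larger part of the positive precursors in 3 of 4 pairs, the clusters were then tested apart, a choice made after these values were seen.

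Within the early cluster alone, all 8 secondary granule genes and 7 of 12 mature neutrophil markers fell with the block, and 4 of 11 tested stem and progenitor genes rose. Of the 8 secondary granule genes 7, and of the 7 mature markers 5, were above mature B-like and NK-like cells in UMIs per cell in each of the 8 samples. The 12 mature markers had a median log2 difference of -0.39 with the block, and the stem and progenitor genes of 0.28. Of 8964 genes, 0 (0%) passed without the block, with 751 (8.38%) under 0.05 before adjustment. With the block 675 passed in edgeR (7.53%), 212 higher (2.37%) and 463 lower (5.17%), and 254 in DESeq2 with the block. Without overlap, 2.01% of genes were higher and 2.06% lower. With a pair left out 1037, 566, 95 and 61 genes passed without pair 1, 2, 3 and 4, and 670 to 675 of the 675 kept their sign. The sums rest on 72, 37, 208 and 129 cells in positive 1 to 4 and 10, 68, 119 and 144 in negative 1 to 4.

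The primary granule genes that define the cluster gave its reference level. Elane was at 9340, 8588, 9873 and 11070 CPM in positive and 11620, 8930, 8451 and 10590 in negative samples (log2 -0.02 ± 0.06 with the block, edgeR adjusted p = 0.895). The median of the 6 primary granule genes was 0.08, and 1 of them, the transcription factor gene Gfi1, rose (0.50 ± 0.12, edgeR adjusted p = 0.0194 with the block). Mpo, the myeloperoxidase, and Prtn3, proteinase 3, did not pass, at log2 0.05 ± 0.06 and 0.06 ± 0.06. Because these genes helped to form the cluster, their levels are a description.

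All 8 secondary granule genes fell with the block (median log2 -0.81, against 0.01 over all genes), and so did all 10 immature neutrophil markers (median -0.98). Mature B-like or NK-like cells, which should lack these genes, held at least as many UMIs per cell as early cells of the same sample for Ltf in 2, Ly6g in 5 and Mmp8 in 6 of the 8 samples, and the fall of these 3 genes is not read as expression. The rest, 7 secondary granule genes (median -0.79) and 7 immature markers (median -0.83), were above both cell types in each of the 8 samples, a check chosen after the values were seen. Lcn2, an iron-sequestering lipocalin, was at 2555, 2139, 1308 and 2744 CPM in positive and 3168, 4414, 4640 and 5416 in negative samples, without overlap (log2 -1.05 ± 0.14, edgeR adjusted p = 0.000518 with the block). Camp, the cathelicidin (-0.83 ± 0.19, edgeR adjusted p = 0.0144), and Ngp (-0.92 ± 0.21, adjusted p = 0.0152) were lower in 3 of 4 pairs. Ifitm6, an immature neutrophil marker, was lower in all 4 pairs (-1.03 ± 0.09, edgeR adjusted p = 2.38e-05). Of the 8 secondary granule genes, 8, 7, 6 and 4 passed without pair 1, 2, 3 and 4, and 6 in DESeq2 with the block. The median log2 ratio of the 7 immature markers was -0.05 in pair 1, -0.70 in pair 2, -1.40 in pair 3 and -0.83 in pair 4, and 4, 7, 7 and 7 of them were below 0. Pair 1, whose negative sum holds 10 cells, was thus split, with Lcn2 and Ifitm6 below 0 and Camp and Ngp above it.

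Other lists moved with these. Of the 8 neutrophil precursor markers 6 fell with the block, among them Orm1 (log2 -1.13 ± 0.13, edgeR adjusted p = 0.000172) and Fcnb, a ficolin (-0.51 ± 0.08, adjusted p = 0.0017). Of 7 tested S100 genes 4 fell, including S100a8 and S100a9, the calprotectin chains. S100a8 was at 36180, 42550, 35760 and 46400 CPM in positive and 37850, 73980, 75350 and 79190 in negative samples (log2 -0.68 ± 0.10, edgeR adjusted p = 0.000781 with the block). Its negative 1 sample, a sum of 10 cells, lay inside the positive range. The lysozyme gene Lyz2 was at 743, 693, 231 and 515 CPM in positive and 1160, 985, 1148 and 1160 in negative samples and fell with the block (log2 -1.18 ± 0.19, edgeR adjusted p = 0.0017).

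Among progenitor genes, 4 of 11 tested rose with the block and 0 fell. They were Sox4 (log2 1.38 ± 0.28, edgeR adjusted p = 0.00769), the transcription factor gene Myb (0.70 ± 0.10, adjusted p = 0.000575), the growth factor receptor Kit (0.59 ± 0.12, adjusted p = 0.00831) and the cyclin-dependent kinase Cdk6 (0.52 ± 0.08, adjusted p = 0.00178). Myb was at 225, 226, 328 and 238 CPM in positive and 176, 163, 207 and 114 in negative samples, without overlap. Sox4 was at 12.9, 13.5, 9.88 and 15.02 against 5.59, 5.75, 6.66 and 2.86 CPM, also without overlap. All 4 genes were higher in the positive sample of every pair.

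Of 22 cell cycle genes, 9 fell and 2 rose with the block. Those that fell included the replication helicase genes Mcm2 (log2 -0.51 ± 0.12, edgeR adjusted p = 0.0137) and Mcm5 (-0.51 ± 0.11, adjusted p = 0.0102) and the replication clamp gene Pcna (-0.54 ± 0.11, adjusted p = 0.00749). The 2 that rose were the mitotic genes Cenpf (0.63 ± 0.13, adjusted p = 0.00838) and Ccnb1, cyclin B1 (0.52 ± 0.13, adjusted p = 0.0253). Cenpf and Ccnb1 were higher in 3 of 4 pairs, and Mcm2, Mcm5 and Pcna lower in all 4. Of 12 immediate early and heat shock genes 4 fell, Jun (-0.98 ± 0.09, edgeR adjusted p = 3.24e-05), Junb, Jund and Ier2. Per early cell Jun was at 4.4, 1.84, 1.64 and 3.63 UMIs in positive 1 to 4 and 7.7, 2.66, 1.7 and 6.64 in negative 1 to 4. It was not above mature B-like and NK-like cells in every sample. NK-like cells of positive 3 held 2.0 and mature B-like cells of positive 4 held 3.69 UMIs per cell.

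**Figure D3:**
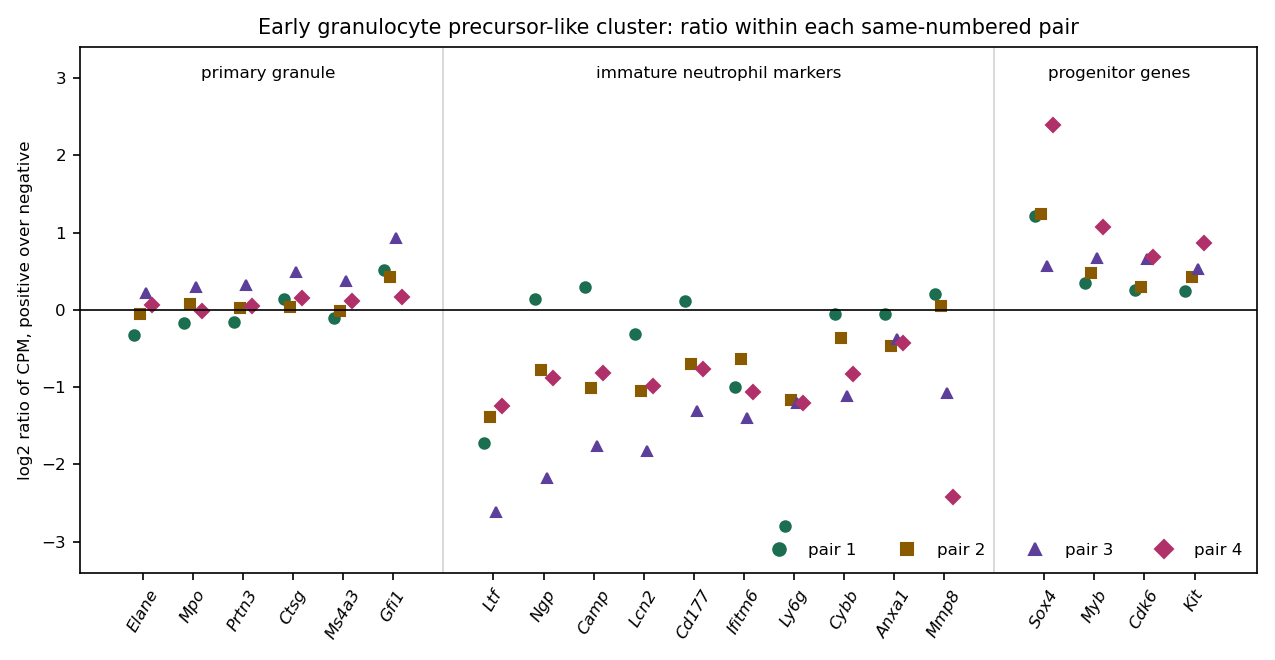
Log2 ratio of CPM, positive over negative, for 20 genes in the early granulocyte precursor-like cluster, with 1 symbol for each same-numbered pair. Of the primary granule genes, Elane, Mpo and Prtn3 lie on both sides of 0 and Gfi1 above 0 in all 4 pairs (group medians -0.14, 0.03, 0.35 and 0.09), most immature neutrophil markers lie below 0 in pairs 2, 3 and 4 (medians -0.74, -1.35 and -0.93 over all 10, Ltf, Mmp8 and Ly6g included) and on both sides of 0 in pair 1 (median -0.06), and Sox4, Myb, Cdk6 and Kit lie above 0 in all 4 pairs.

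Depth moved with this comparison. The median early cell of the positive sample held more UMIs than that of its pair, at 32701.5 against 31682.5, 40144 against 33808.5, 46760 against 28584 and 45581 against 38249.5 in pairs 1 to 4. Its mitochondrial share was higher as well, at 3.04% against 2.29%, 1.58% against 1.18%, 1.54% against 0.912% and 2.14% against 1.76%, and 9 of 13 mitochondrial genes rose with the block (median 0.29), as did 1 of 88 ribosomal protein genes. The part of depth in the result was not tested. In UMIs per cell Lcn2 was lower in the positive sample of each pair, at 88.0, 89.6, 68.1 and 118 against 113, 147, 135 and 184. Fcnb was not, at 26.7, 26.5, 18.8 and 23.5 against 29.9, 32.3, 17.8 and 25.9 UMIs per cell. Chil3, Ifitm6 and Cybb were also lower per cell in each pair. Cebpe, at 14.4 against 10.2, and Anxa1, at 58.2 against 42.2, were higher in positive 3 than in negative 3. Camp, at 475 against 401, and Ngp, at 235 against 221, were higher in positive 1 than in negative 1.

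Neutrophil RNA was also found in cells that should lack it. Mature B-like cells held 0.154 to 19.7 Lcn2 UMIs per cell, with median depths of 1853 to 2629 UMIs, against 68.1 to 184 in early cells. Between the sorts, 8 neutrophil genes had a median log2 ratio in mature B-like cells of 1.74, 1.21, -3.21 and -4.06 in pairs 1 to 4, and of -0.13, -0.84, -1.58 and -0.86 in the early cluster. In NK-like cells it was 2.70, -0.02, -0.94 and -0.32. The part of free RNA in the result was not tested. Mmp8 and Ly6g were at or below 0.854 and 0.4 UMIs per early cell. Ltf was at 5.83 and 2.43 UMIs per early cell in positive 1 and 2, against 7.66 per NK-like cell in positive 1 and 6.71 per mature B-like cell in positive 2. With cells pooled over the 8 samples, 234 (50.5%) of the 463 genes that fell had at most 10% of their early-cell UMIs per cell in B and NK-like cells. The same held for 37.1% of all genes tested and 118 (55.7%) of the 212 that rose. Among the 234 were 7 of the 10 immature markers. Single samples could exceed this limit. In positive 2 Lcn2 was at 19.7 UMIs per mature B-like cell against 89.6 per early cell, and Ifitm6 at 7.67 per NK-like cell against 28.4.

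The later neutrophil precursor-like clusters alone showed little of this. Of 8095 genes 0 (0%) passed without the block, 147 (1.82%) were under 0.05 before adjustment, and 12 (0.148%) passed with it, 2 higher (0.0247%) and 10 lower (0.124%). Without overlap, 0.951% of genes were higher and 0.581% lower. The 2 higher genes were Vcam1 and AY036118. Pooled over samples and without TMM scaling, Vcam1 was at 37.8 CPM in positive and 12.4 in negative cells of these clusters. In mature B-like cells it was at 61.1 and 11.4 CPM, and in NK-like cells at 46.6 and 6.60. The part of free RNA in its rise was not tested. Of the 675 genes called in the early cluster 621 were tested here, 422 had the same sign and 7 were called in both. The median of the secondary granule genes was -0.12 and that of the immature markers -0.12 with the block, against 0.00 over all genes. The difference between early and later clusters was not tested.

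In immature and mature neutrophil-like cells together no gene passed, and the activation genes all lay above 0 without passing. Of 7832 genes 0 (0%) passed in edgeR, with and without the block, 76 (0.97%) were under 0.05 before adjustment, and none passed in DESeq2. The 14 genes of the activation and chemokine list had a median log2 difference of 0.65 against 0.00 over all genes, and none passed. These sums pool immature and mature cells in unequal mixtures: mature cells were 52.1%, 54.8%, 56.6% and 70.3% of positive 1 to 4 and 68.0%, 45.7%, 48.8% and 61.4% of negative 1 to 4, so a larger part of the positive sample in pairs 2, 3 and 4. Mature neutrophil-like cells held 64.3% of all positive and 63.6% of all negative Cxcl2 UMIs, and the part of the mixture in the result was not tested. Cxcl2, a chemokine that attracts neutrophils, was the member without overlap, where 0.741% of all genes were higher and 0.575% lower without overlap. It was at 1486, 1500, 1777 and 3924 CPM in positive and 1051, 1304, 1153 and 1023 in negative samples (log2 0.94 ± 0.29, edgeR adjusted p = 1). Positive 4 lay far above the others, and the difference was 0.476 without it.

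Other members overlapped between the sorts. Il1b, the inflammatory cytokine, was at 1155, 448, 412 and 1307 CPM in positive and 1036, 374, 250 and 404 in negative samples (log2 0.69 ± 0.47, edgeR adjusted p = 1). Osm, oncostatin M, was at 176, 130, 142 and 280 against 130, 113, 83.7 and 109 CPM (0.75 ± 0.23, edgeR adjusted p = 1). Both were higher in the positive sample of all 4 pairs. Acod1, which makes itaconate, and the chemokine gene Ccl3 were higher in 2 of 4 pairs. The maturation markers of these cells had a median of -0.03 for the mature and -0.05 for the immature neutrophil markers.

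**Figure D4:**
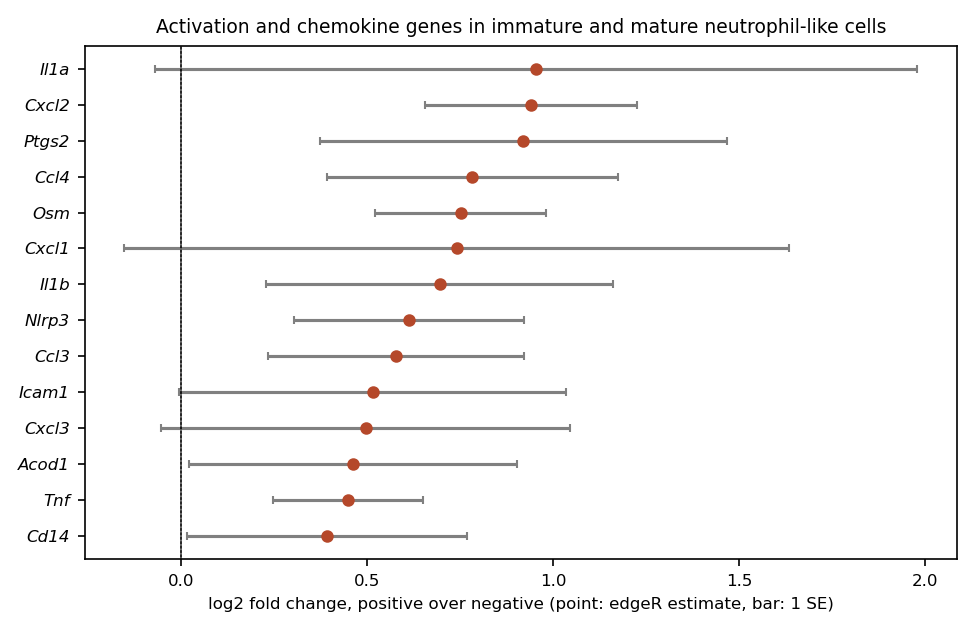
Log2 fold change, positive over negative, of the 14 activation and chemokine genes in immature and mature neutrophil-like cells, with points for the edgeR estimate over 4 samples a sort and bars for 1 SE. All 14 points lie above 0, from Cd14 (lowest) to Il1a (highest), and 4 of the bars reach 0 or below (Il1a, Cxcl1, Icam1 and Cxcl3).

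Monocyte-like and B lineage cells gave no gene that passed. In monocyte-like cells 0 of 9172 genes (0%) passed in edgeR with or without the block, 288 (3.14%) were under 0.05 before adjustment, and none passed in DESeq2. These sums pool classical and nonclassical monocyte-like cells in unequal mixtures, with 97 of 251, 5 of 46, 9 of 39 and 14 of 28 cells nonclassical in positive 1 to 4 and 77 of 930, 66 of 458, 85 of 319 and 43 of 215 in negative 1 to 4. All 6 tested antigen presentation genes of MHC class II were above 0 (median log2 1.74, and 1.05 with the block). So were all 8 nonclassical monocyte markers (median 0.71), 11 macrophage markers (1.45), 6 dendritic cell markers (1.82) and 2 mature B cell markers (1.92) that were tested, and their part in the result was not tested. H2-Aa was at 646, 1.68, 255 and 25.7 CPM in positive 1 to 4 and 55.5, 82.5, 108 and 14.7 in negative 1 to 4, so the positive samples lay on both sides of the negative ones (log2 1.94 ± 0.89, edgeR adjusted p = 1). Among genes without overlap (0.981% of all higher, 1.29% lower), the transcription factor gene Ets1 was at 41.6, 13.5, 12.4 and 20.0 against 6.58, 9.74, 7.24 and 4.00 CPM (1.90 ± 0.38, edgeR adjusted p = 1). Ciz1, a replication factor gene, was at 12.3, 16.8, 9.32 and 8.57 against 23.8, 27.0, 26.5 and 29.7 CPM (-1.10 ± 0.23, edgeR adjusted p = 1).

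In B lineage cells 0 of 3866 genes (0%) passed in edgeR with or without the block, 148 (3.83%) were under 0.05 before adjustment, and 1 passed in DESeq2, Fcnb. Igf1r, a growth factor receptor, was at 71.6, 48.9, 55.4 and 56.3 CPM in positive and 11.7, 24.9, 2.52 and 25.5 in negative samples, without overlap (0.776% of all genes higher, 1.09% lower), at log2 2.05 ± 0.46 (edgeR adjusted p = 0.841). The sums of positive 3 and 4 held only 22 and 13 cells, with 56917 and 38355 UMIs of all genes. Their Igf1r levels, and that of negative 3, thus rest on very few UMIs. All 10 immature neutrophil markers were above 0 in these cells (median 0.74, and 0.22 with the block). The 6 tested secondary granule genes had a median of 0.84, and 0.05 with the block, and the mature B-like cells differed in direction between pairs, as given above for 8 neutrophil genes.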

How the data were processed

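Single-cell RNA was measured in 8 bone samples, sorted by biotin. The deposited matrices hold raw UMI counts for 32285 genes in each barcode, per the file headers. The submitters' processing notes name Cell Ranger, Seurat and mm10, with no role or version. Per the labels, samples were multiplexed with CellPlex and already separated. Whether intronic reads were counted is not given in the sources used here.

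Kept cells were clustered with scanpy 1.11.5 and igraph 0.11.9 (counts scaled to 10000 per cell, 2000 variable genes, 30 components, 15 neighbours, Leiden resolution 1.0) and named from 23 marker lists with 218 genes. No doublets were removed. Leaving out the 5% of cells per sample with the highest Scrublet score (798 cells) was an alternative. Counts were summed per sample and class, for samples with at least 10 cells, and tested with edgeR 4.0.16 (TMM, filterByExpr, quasi-likelihood, Benjamini-Hochberg over all genes tested, adjusted p 0.05), with DESeq2 1.42.0 and limma 3.58.1 as alternatives. Shares were compared by two-sided exact permutation (scipy 1.17.1, 70 assignments). The code was tested on simulated data.

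Samples were paired by replicate number, a pairing that the labels do not state. Same-numbered samples list the same CellPlex oligos in their files, as do samples of the other tissues with that number. The deviations of same-numbered bone samples from the group means correlated at 0.482, 0.451, 0.496 and 0.730. Those of positive and negative samples with different numbers correlated at -0.529 to 0.271. The numbers 3 and 4 list the same oligos. Blocked values are therefore given where they change a call.

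Named genes were those past the threshold, otherwise those without overlap and of smallest p, and the best expressed members of 29 gene lists. A part of them is printed, and genes called only with the block or shown for their cell source were added after their values were seen. The members and lists were chosen with earlier results of these data known. Some genes are not reported here.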

Additional observations from a re-analysis of the deposited data

Results flagged for a closer look

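Of 202 groups of 4 samples checked, 20 had a sample far from the other 3 (by Dixon's test, which chance passes in about 1 in 20 groups). Positive 2 stood apart most often. It was high in the share of macrophage-like cells (32.97% against 1.04% to 6.03%) and of stromal-like cells (1.566% against 0.462% to 0.548%). In the sums it was high in Vcam1 (1506 CPM against 59.2 to 143.5), Hmox1, the heme oxygenase (1231 against 10.7 to 172), Ctsk (453.8 against 0.751 to 4.50), Acp5 (499.8 against 8.18 to 31.6) and Serpina3n (13.94 against 0.667 to 1.17). Its pair, negative 2, was high in Dcn (1.169 CPM against 0.114 to 0.193), Ctsk (4.3 against 0.629 to 1.16) and Hopx (238.5 against 123 to 132).

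Negative 1 was low in immature neutrophil-like cells (6.113% against 25.1% to 26.1%) and high in Ly6d (365.8 CPM against 46.9 to 96.6) and Ms4a4c (186.2 against 52.6 to 62.9). Positive 4 was high in mature neutrophil-like cells (43.47% against 14.97% to 17.8%) and in Cxcl2 of the neutrophil-like cells (3924 CPM against 1486 to 1777). Positive 3 was high in Kit, in the sums (40.23 CPM against 16.1 to 19.8) and in the precursors (40.72 against 20.8 to 23.4), and in Myb of the early granulocyte precursor-like cluster (327.8 against 225 to 238). In that cluster S100a8 was low in negative 1 (37850 CPM against 73980 to 79190) and Lyz2 low in negative 2 (985.3 against 1148 to 1160).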

How the results depend on the processing

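The replicate block decides most calls. In the sums over all cells 0 genes passed in edgeR, but 12 with the replicate block (12 with other size factors, 37 without pair 3, 4 without stromal-like cells, 657 in DESeq2), 120 in DESeq2 without it and 1, Lum, with the spread taken from 32 samples. In the granulocyte precursors the count went from 0 to 682 with the block (691 with other size factors, 396 in DESeq2, 4170 without pair 1), and single samples left out gave 0 to 275, the 275 without positive 1. For the early cluster with the block it was 675 (254 in DESeq2, and 1037, 566, 95 and 61 without pair 1, 2, 3 and 4), and for the later clusters 12. Neutrophil-like cells gave 2 calls without a count filter (the haemoglobin genes Hbb-bs and Hba-a1). B lineage cells gave 1 in DESeq2 (Fcnb), 23 without a filter and 0 to 1 with a sample left out, the 1 without negative 4 or positive 3. The interaction gave 4 in DESeq2. Shares passed in 0 classes by the exact test, 6 in edgeR and 7 with the block. In the other comparisons the block changed no call. The cause of these changes was not tested.

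Over 1464 combinations of 98 single values with a setting, 1224 kept direction and side of the threshold, 234 passed only in the alternative and 6 turned: Acp5 (-0.2232 without positive 2, with a range up to 3.281 when another sample is left out, and -0.2712 with the block without pair 2), Hmox1 (-0.03523 with the block without pair 2), and in the early cluster Elane (0.07671 without pair 1), Mpo (-0.03238) and Prtn3 (-0.02572, both without pair 3). The reference for this tally was the fit without the block, or the exact test for shares. None of the 98 values passed there, so none could lose a call. The tally therefore does not test the calls made with the block. Fits within macrophages, stem or progenitor cells and T cells were not run, for lack of samples with 10 cells.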

Other observations

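Several smaller classes overlapped between the sorts. Dendritic-like cells were at 1.10% ± 0.664 in the positive sort and 1.03% ± 0.790 in the negative one (n = 4 each, exact p = 0.914), and basophil or mast-like cells 0.574% ± 0.258 and 0.458% ± 0.138 (n = 4 each, exact p = 0.457). Plasma-like cells were lower in the positive sample of all 4 pairs, at 0.0996%, 0%, 0.645% and 0.347% in positive 1 to 4 against 0.439%, 0.117%, 1.15% and 0.656% in negative 1 to 4 (n = 4 each, exact p = 0.229, adjusted 0.434). They rest on 0 to 28 cells a sample.

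In the sums over all cells, neutrophil genes of later stages lay below 0 without passing. None of 12 late neutrophil and egress genes was above 0 (median log2 -0.81), and 1 of 8 S100 genes was (median -0.64). The chemokine receptor Cxcr2 was at 148.5, 166, 79.4 and 281 CPM in positive and 93.9, 301, 335 and 454 in negative samples. Krt18, a keratin, was the epithelial or tumour marker without overlap, at 2.41 to 6.46 CPM in positive and 0.579 to 2.08 in negative samples, and 56.3% of its positive UMIs came from stem or progenitor-like cells.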
